A study of Mus musculus with 2 samples.

Results

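The genes described here build and hold together the myelin sheath that oligodendrocytes wrap around axons. They are Mbp, Mog, Mag, Mobp, Cnp, Cldn11, Mal, Ugt8a and Gjb1, 9 of the 18193 genes that have a probe set of their own on the array. They were taken by name, as every probe set that the platform annotation pairs with one of these symbols alone, a rule that uses no measured value, though the genes were proposed with earlier results of these data known. The rule gave 25 probe sets of 45101 in the table, from 8 for Mbp to 1 each for Mog, Mag and Cldn11.

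Their signals come from 2 arrays of hypothalamus RNA, 1 for Crtc1 knockout mice and 1 for wild-type mice, hybridised to study what Crtc1, a coactivator of the transcription factor CREB, does for energy balance and fertility. Both groups were males aged 12 weeks, kept without food for 18 h and given food for the last 6 h, so refeeding after a fast is shared by both and no unfasted group was used here. Each array holds RNA of 3 mice mixed in equal amounts, so a group is 1 pooled sample, the spread between mice cannot be seen and no test between the genotypes exists. Nothing on strain, on the kind of Crtc1 allele or on whether the wild-type mice were littermates is given in the sources used here.

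Myelin is a stack of oligodendrocyte membrane, rich in cholesterol and galactolipids, that insulates axons and lets impulses jump from node to node. Mbp and Mobp lie between the cytoplasmic faces of the stack and hold it compact, while Mog and Mag are surface proteins of its outermost and innermost layers. Mature oligodendrocytes switch these genes on together under transcription factors such as Olig2, Sox10 and Myrf. Fibre tracts, among them the optic tract, run along the hypothalamus, and oligodendrocytes lie among its neurons as well.

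The regulatory sequence just before the start of these genes is shown first because Crtc1 acts through CREB, whose site is the cAMP response element, and because SOX factors drive the myelin programme. The RefSeq promoter table (GRCm38.p6) held 13 windows for 8 of the 9 genes, 3 for Mag, 4 for Gjb1 and 1 for each of the others, and no window of Mbp was used here. Over the 250 bases before the start, on either strand, the full cAMP response element TGACGTCA was in none of the 13 windows, against 1.55% of all 32851 windows. The shorter form TGACG, which lies inside the full element, was also in none, against 17.8%. The SOX core ACAAAG, read as CTTTGT on the other strand, was in 6 windows of 4 genes, Mobp, Mag, Cnp and Gjb1, against 16.5% of all windows. By gene this is 4 of 8 against 18.6% of the 27025 genes in the table. A gene was counted if any of its windows held the core. Mag and Gjb1 had 3 and 4 windows, while the 27025 genes shared 32851, so the 2 shares are not fully alike. In none of these windows was CAGCTG found, an E-box of the kind OLIG factors bind (13.0% of all windows), and TATAAA was in 1 window, of Gjb1 (12.4%). Such matches describe the letters in a window and show neither binding nor use.

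Upstream sequences of Mobp, Mag and Cnp, 3 of the 4 genes with a SOX core, are printed to show where it lies. Gjb1 is given by position alone, and for Mag, which also has several starts, a single window is printed. They run 5′ to 3′ in the direction of transcription, with the SOX core in capitals. The Mobp stretch is chr9:120149492-120149741 on the plus strand, that of Mag is chr7:30914864-30915113 on the minus strand, and that of Cnp is chr11:100574689-100574938 on the plus strand, all in GRCm38.p6. Part of the Mag and Cnp stretches lies inside the annotated gene, since the Mag locus reaches 30914922 and the Cnp locus begins at 100574909.
Mobp: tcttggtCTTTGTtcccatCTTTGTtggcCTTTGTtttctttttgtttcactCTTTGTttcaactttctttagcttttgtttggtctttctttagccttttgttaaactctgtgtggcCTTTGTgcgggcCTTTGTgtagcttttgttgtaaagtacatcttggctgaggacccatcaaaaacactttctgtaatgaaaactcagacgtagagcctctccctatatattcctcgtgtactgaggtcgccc
Mag: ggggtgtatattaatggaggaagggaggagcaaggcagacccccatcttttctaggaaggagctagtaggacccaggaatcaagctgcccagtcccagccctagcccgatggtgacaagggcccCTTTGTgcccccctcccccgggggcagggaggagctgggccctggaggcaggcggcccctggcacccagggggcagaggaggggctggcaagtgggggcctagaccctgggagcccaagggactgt
Cnp: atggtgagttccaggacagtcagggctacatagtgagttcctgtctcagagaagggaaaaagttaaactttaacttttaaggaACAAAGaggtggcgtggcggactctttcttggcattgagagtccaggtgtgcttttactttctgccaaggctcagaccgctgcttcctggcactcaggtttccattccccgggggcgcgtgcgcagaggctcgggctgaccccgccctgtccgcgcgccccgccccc

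Mobp carried 6 SOX cores in its 250 bases, beginning 243, 231, 221, 198, 132 and 120 bases before the start, and it was the 1 window of 32851 with that many. Mag and Cnp carried 1 each, beginning 126 and 167 bases before the start. An overlapping Mag window held the same core 67 bases before a further start. In Gjb1, 2 of the 4 windows held 1 core each, beginning 176 and 57 bases before their starts.

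The targeted gene, Crtc1, read lower in the library labelled knockout by each of its 3 probe sets, at 85.1 in the knockout and 631 in the wild type, at 31.5 and 209, and at 14.7 and 38.4, the last under the floor of the knockout array (its 30th percentile, a signal of 20.5). Their positions were not set against the knockout allele. Of 11 hypothalamic neuropeptide genes listed to check the tissue, 10 had a probe set and 9 were measured, among them Pomc, Npy, Avp and Oxt. Crh had a probe set but was not measured. Of all 18193 genes with a probe set of their own, 11312 were measured.

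RNA of the myelin genes was at nearly the same level in both pools. All 9 genes were measured, which means that at least 1 probe set had a mean log2 signal at or above the median of all probe sets, and 24 of the 25 probe sets passed that limit. By the brightest probe set of each gene, 4 genes read higher and 5 lower in the knockout pool, with a median log2 difference (knockout minus wild type) of -0.01, against 0.00 over all 11312 measured genes. In the deposited scaling 50.9% of all measured genes read higher and 49.0% lower, the shares to hold beside the counts of each gene list below. That split of 4 higher and 5 lower became 3 and 6 when the arrays were centred on their medians and 5 and 4 after quantile normalization or signal-dependent loess. The differences ran from -0.44 for Gjb1 to 0.21 for Mog. In such whole-tissue RNA, the number of oligodendrocytes, the RNA per oligodendrocyte and the amount of fibre tract taken in dissection cannot be told apart.

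**Figure D1:**
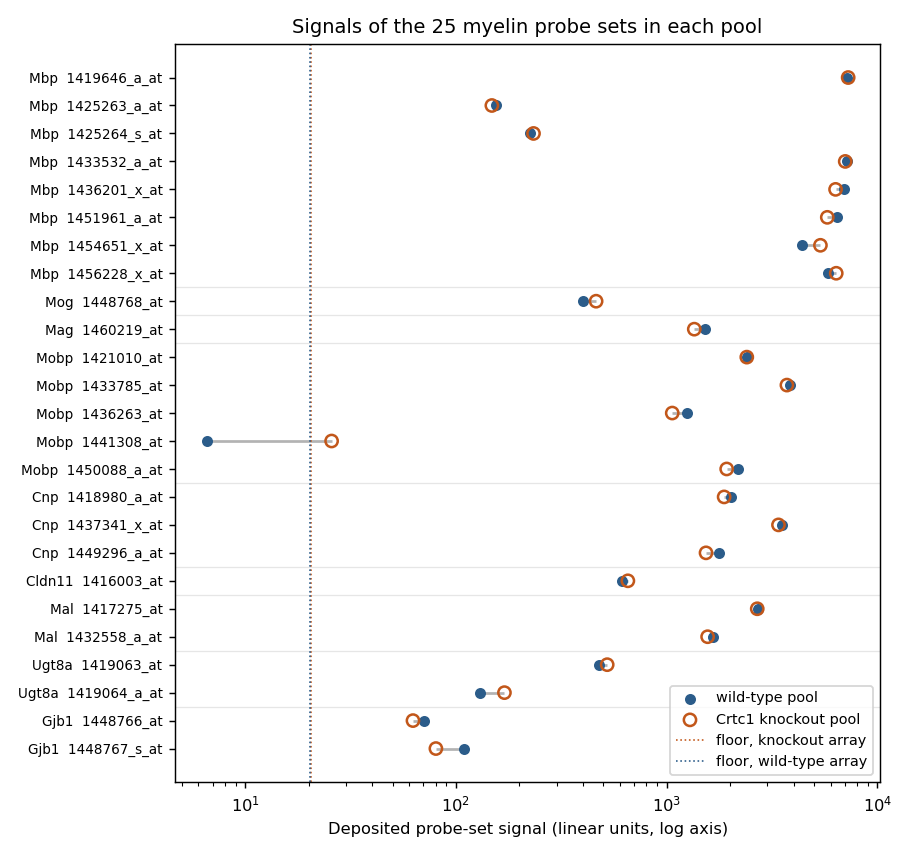
Deposited signal of each of the 25 myelin probe sets (rows, log axis) in the wild-type pool (filled) and the Crtc1 knockout pool (open), with the floor of each array dotted. The symbols of a row nearly coincide, and the pair furthest apart is the dim Mobp probe set 1441308_at, whose wild-type signal of 6.6 lies under the floor.

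The error set beside each difference is that of the array, the SD between probe sets of one gene and of like brightness, since nothing else repeats a measurement here. It shrank with brightness, from 0.35 on the log2 scale for mean log2 signals below 7 to 0.12 for those above 10, with 0.25, 0.21 and 0.17 in the steps between (bounds 7, 8, 9 and 10). It holds no spread between mice. Of the 24 measured myelin probe sets, 11 (45.8%) differed by more than this error, 4 of them higher and 7 lower, while 16.2% of all measured probe sets were further apart than it and higher and 14.8% further apart and lower. After median centring the count was again 11, with 2 higher and 9 lower, where the shares of all measured probe sets were 11.0% and 21.9%. It was 10 after quantile normalization (30.5% of all measured probe sets) and 9 after loess (30.4%).

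Mbp encodes myelin basic protein, which glues the cytoplasmic faces of the membrane together, and its absence causes the shiverer phenotype in mice. Its brightest probe set, 1419646_a_at, read 7259 in the knockout and 7171 in the wild type, a log2 difference of 0.02 with an array error of 0.12. Its sign turned under median centring, to -0.04. The next bright one, 1433532_a_at, read 7029 and 7134 (-0.02).

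The other Mbp probe sets lay on both sides of 0. Probe set 1451961_a_at read 5778 in the knockout and 6398 in the wild type (-0.15), and 1436201_x_at read 6325 and 6961 (-0.14). Against these, 1456228_x_at read 6372 and 5812 (0.13), and 1454651_x_at read 5361 and 4382, which is 1.22-fold higher (0.29). Each of these 4 differences exceeded the array error of 0.12, and they pointed both ways. Other scalings brought 3 of them under 0.12 in size, 1456228_x_at to 0.07 under median centring, 1436201_x_at to -0.11 under quantile normalization and -0.10 under loess, and 1451961_a_at to -0.11 under loess. The suffix _x_at marks probe sets of which some probes can match other transcripts, and the 3 of this kind ran from -0.14 to 0.29, a wider range than the -0.15 to 0.02 of the 3 bright _a_at probe sets, which are made to match several transcripts of one gene.

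Dimmer readings of Mbp came from 1425263_a_at, at 148 in the knockout and 154 in the wild type (-0.06), and from 1425264_s_at, at 233 and 225 (0.05). Both differences were inside their array error of 0.25. In all, 4 Mbp probe sets read higher and 4 lower, their mean difference was 0.02 with an SD of 0.15 between probe sets (n = 8), and the sum of their signals was 38506 in the knockout and 38238 in the wild type.

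Mobp, a small basic protein of compact myelin, had 4 measured probe sets, none of which read higher in the knockout pool. The brightest, 1433785_at, read 3717 in the knockout and 3845 in the wild type (-0.05), and 1421010_at read 2398 and 2399, with no difference to 2 decimals. The other pair was further apart, 1450088_a_at at 1925 and 2187 (-0.18) and 1436263_at at 1062 and 1246 (-0.23, 1.17-fold lower), both beyond the array error of 0.12. The mean over the 4 was -0.12 with an SD of 0.11, and 1421010_at turned to 0.02 under quantile normalization and loess while the other 3 stayed below 0 under each scaling. The remaining probe set, 1441308_at, read 25.7 in the knockout and 6.6 in the wild type, where it was under the floor, and was not counted as measured.

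Cnp encodes a cyclic nucleotide phosphodiesterase that keeps cytoplasmic channels open within the sheath. Its 3 probe sets all read lower in the knockout pool and did so under each scaling. Probe set 1437341_x_at read 3390 in the knockout and 3522 in the wild type (-0.06), 1418980_a_at read 1872 and 2012 (-0.10), and 1449296_a_at read 1536 and 1779 (-0.21, 1.16-fold lower). Only the last exceeded its array error of 0.12, joined under median centring by 1418980_a_at at -0.16, and the mean was -0.12 with an SD of 0.08 (n = 3 probe sets).

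Mal, a lipid raft proteolipid that sorts proteins to the myelin membrane, had a brightest probe set that differed little. That probe set, 1417275_at, read 2688 in the knockout and 2711 in the wild type (-0.01, with -0.07 under median centring and 0.01 under loess), and 1432558_a_at read 1563 and 1659 (-0.09). Neither exceeded the array error of 0.12, but under median centring the second did, at -0.15.

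The surface proteins of the sheath went opposite ways. Mag, a sialic acid binding adhesion molecule of the innermost layer that faces the axon, read 1351 in the knockout and 1526 in the wild type by its 1 probe set, 1460219_at, which is 1.13-fold lower (-0.18, array error 0.12). Mog, an immunoglobulin domain protein of the outermost layer and a target of autoimmune demyelination, read 462 and 400.5 by its 1 probe set, 1448768_at, which is 1.15-fold higher (0.21). Unrounded, the Mog difference was just beyond its array error of 0.21, and under median centring, at 0.15, it was inside it. Both kept their sign under each scaling, Mag between -0.24 and -0.16 and Mog between 0.15 and 0.22, and neither has a second probe set to set beside the first.

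Junction proteins form the next group. Cldn11, the claudin that makes the tight junctions running through the sheath, read 654 in the knockout and 611 in the wild type by probe set 1416003_at, 1.07-fold higher (0.10) and inside its array error of 0.17. Gjb1, a connexin that joins layers of myelin and couples oligodendrocytes, had signals in the band of the largest array error and was the member furthest apart. It read 80.3 and 109 by 1448767_s_at, 1.36-fold lower (-0.44, array error 0.35), and 62.5 and 70.3 by 1448766_at (-0.17, inside the same error). Both Gjb1 probe sets read lower in the knockout pool and stayed so under each scaling. Without probe sets ending in _s_at or _x_at, which can match other transcripts, the value of the gene was -0.17.

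Ugt8a encodes the galactosyltransferase that makes galactosylceramide, the most typical lipid of myelin. Its brighter probe set, 1419063_at, read 522 in the knockout and 478 in the wild type (0.13, array error 0.21), and 1419064_a_at read 169.8 and 131, which is 1.30-fold higher (0.38, array error 0.25). Both read higher in the knockout pool under each scaling, with a mean of 0.25.

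**Figure D2:**
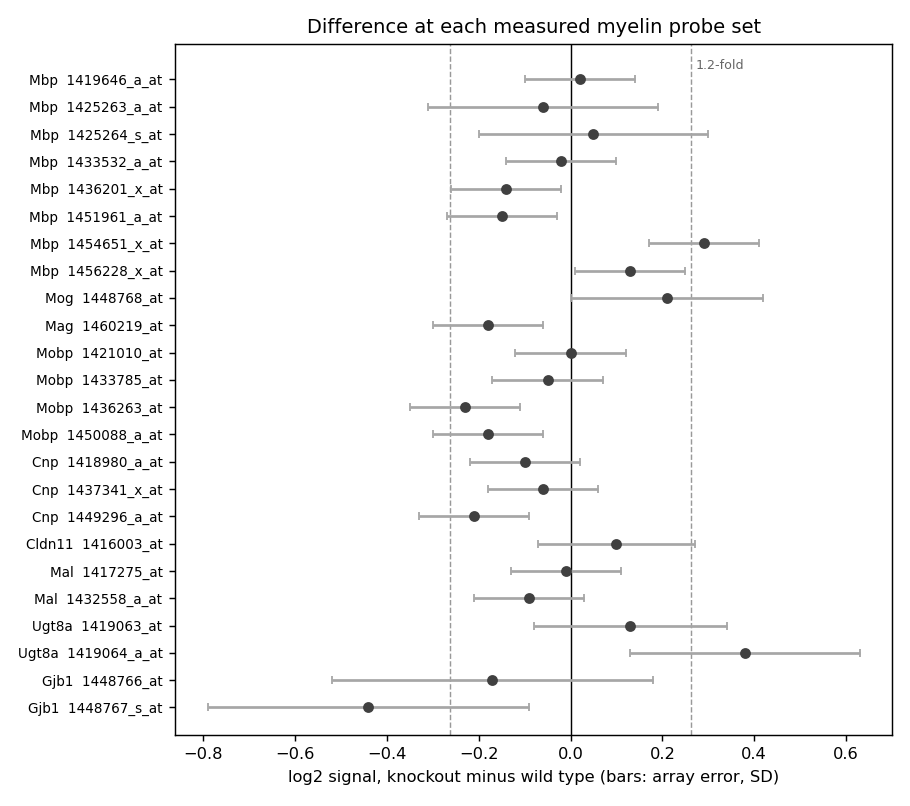
Log2 difference, knockout minus wild type, at each of the 24 measured myelin probe sets, with bars of 1 array error (SD between probe sets of one gene of like brightness) and dashed lines at 1.2-fold. Of all points 3 lie beyond the dashed lines, at Mbp 1454651_x_at, Ugt8a 1419064_a_at and Gjb1 1448767_s_at.

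Past a fold limit, few myelin probe sets were left. At 1.2-fold, 2 of the 24 were higher in the knockout pool (1 of Mbp and 1 of Ugt8a) and 1 was lower (Gjb1), where 14.7% of all measured probe sets were higher and 11.8% lower. Under median centring the split was 1 higher and 3 lower. That scaling also moved the median over all measured genes to -0.06, and the shares of all measured probe sets at 1.2-fold under it were not computed. At 1.5-fold there were 0 either way, against 2.90% higher and 1.90% lower. By gene, 0 of 9 were 1.2-fold higher and 1 was lower, against 11.9% and 9.97% of all measured genes.

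Bright probe sets differ less between arrays, so the 16 myelin probe sets with a mean log2 signal above 10 were also read against the 2775 probe sets as bright. Among these 16, from Mbp, Mag, Mobp, Cnp and Mal, 1 was 1.2-fold higher and 0 lower, against 2.23% and 3.32%. Of the 16, 13 read lower in the knockout pool, with a median of -0.07, while 56.3% of all bright probe sets read lower and their median was -0.02. The 13 became 14 under median centring, where 73.3% of all bright probe sets were lower, and 10 under quantile normalization and loess, where 49.5% were. The median of the 16 stayed at -0.13 to -0.04 under these scalings. Of the 16, 6 are probe sets of Mbp, 3 higher and 3 lower, while those of Mag, Mobp, Cnp and Mal all read lower. Under quantile normalization or loess, 1 of Mobp and 1 of Mal turned. Probe sets of 1 gene, for Mbp as for Mobp, Cnp and Mal, are not independent readings.

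**Figure D3:**
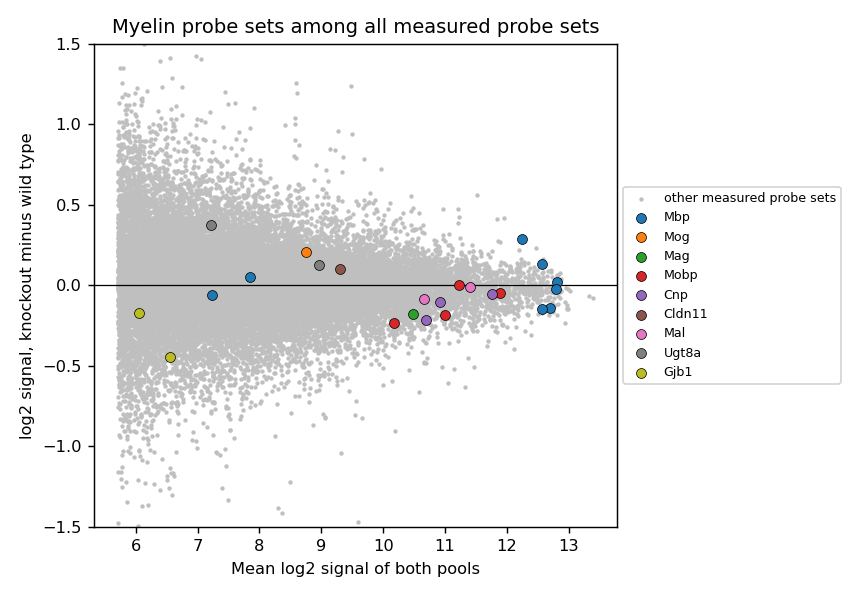
Log2 difference, knockout minus wild type, against mean log2 signal for the measured probe sets (grey), with those of the myelin genes coloured by gene; 25 of 22519 probe sets lie beyond the plotted range of 1.5 on the log2 scale. The myelin probe sets lie inside the grey cloud at every brightness, and at the bright end those of Mbp lie on both sides of 0.

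Several probe sets of one gene give repeated readings of its sign in the same 2 RNA pools, so their agreement is no replicate of the genotypes. Of the 6 myelin genes with at least 2 measured probe sets, 5 had all of them on one side of 0 (Mobp, Cnp, Mal and Gjb1 lower, Ugt8a higher), and the exception was Mbp. Over all 5199 genes with at least 2 measured probe sets the share was 42.5%, matched neither for brightness nor for the number of probe sets. Mal, Ugt8a and Gjb1 have only 2 each, the number with which one sign is easiest to reach. Mobp counts here only through 1421010_at, at 2398 in the knockout and 2399 in the wild type. Under quantile normalization or loess, Mobp and Mal each had a probe set that turned, which leaves Cnp, Ugt8a and Gjb1. The 42.5% is for the deposited scaling, and the share of all genes under quantile normalization or loess was not computed. The SD between probe sets was 0.05 for Mal, 0.08 for Cnp, 0.11 for Mobp, 0.15 for Mbp, 0.18 for Ugt8a and 0.19 for Gjb1, with a median of 0.17 over all such genes. That median covers genes of every brightness. Above a mean log2 signal of 10, where the measured probe sets of Mal, Cnp and Mobp and 6 of Mbp lie, the array error was 0.12.

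Ordered by the difference of the brightest probe set, the genes run from Gjb1 (-0.44) through Mag (-0.18), Cnp (-0.06), Mobp (-0.05), Mal (-0.01), Mbp (0.02), Cldn11 (0.10) and Ugt8a (0.13) to Mog (0.21). Neighbours in this order differed by at most 0.27, the step from Gjb1 to Mag, and none of the 8 steps exceeded the array errors of its 2 genes combined (as the root of their summed squares). Sorting puts the closest values side by side, so small steps follow from the order itself. They do not show whether genes further apart in it differ.

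**Figure D4:**
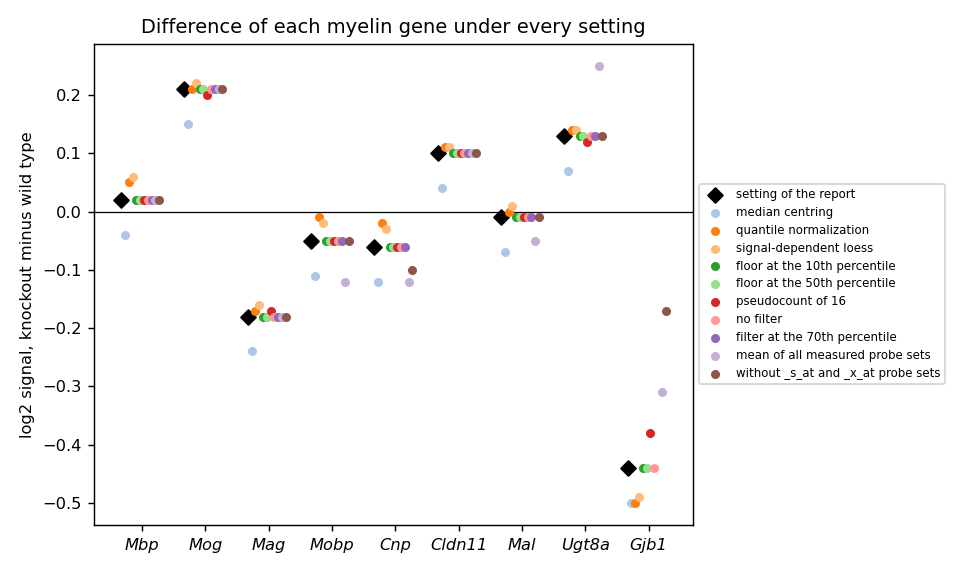
Log2 difference of each myelin gene, knockout minus wild type, under the setting of the report (diamonds) and under 10 alternatives (dots), 9 for Gjb1, which was not measured with the filter at the 70th percentile. Mbp and Mal change sign between scalings, Gjb1 ranges from -0.50 to -0.17, and the other 6 genes keep their side of 0.

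Other genes of the sheath and of mature oligodendrocytes also lay close to 0 as a group. Of 40 such genes with a probe set of their own, 39 were measured, 22 higher and 17 lower, with a median of 0.04 (-0.02 under median centring, where 17 were higher and 22 lower). At 1.2-fold 1 was higher and 5 lower, against 11.9% and 9.97% of all measured genes, and at 1.5-fold 0 either way. Among structural genes, Gpm6b, a proteolipid, read 3852 in the knockout and 3758 in the wild type (0.04, -0.02 under median centring), the tetraspanin gene Tspan2 1353 and 1252 (0.11), and the septin gene Septin4, of the scaffold that runs along compact myelin, 2182 and 1955 (0.16). Plekhb1 went the other way, at 3104 and 3545 (-0.19, array error 0.12). Pllp, which encodes plasmolipin, was 1.29-fold lower (-0.36) and Hapln2, which encodes a matrix link protein of the nodes, 1.21-fold lower (-0.28).

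Of 20 measured enzymes and support genes 9 read higher and 11 lower, with a median of -0.03, and 6 and 14 with a median of -0.08 under median centring. Car2, the carbonic anhydrase of oligodendrocytes, read 3238 in the knockout and 3381 in the wild type (-0.06), and the deacetylase gene Sirt2 1355 and 1448 (-0.10). Furthest apart were Ppp1r14a, a phosphatase inhibitor gene, at 1.30-fold higher (0.38), Hsd17b12, a reductase of fatty acid elongation, at 1.24-fold lower (-0.31, both probe sets lower), and the protease gene Adamts4 at 1.22-fold lower (-0.29). Named after their values were seen, Fa2h and Gal3st1, which act before and after Ugt8a in the making of myelin galactolipids, differed by -0.02 and -0.12, inside their array errors of 0.17 and 0.25.

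Among transcription factors of the lineage, 14 of 20 measured genes were higher and 6 lower, against 50.9% and 49.0% of all measured genes. Their median was 0.06, and under median centring 10 were higher and 10 lower, with a median of 0.00. Myrf, the factor that switches on the myelin genes in differentiating oligodendrocytes, read 550.5 in the knockout and 715 in the wild type by 1 probe set, which is 1.30-fold lower (-0.38, array error 0.17). Olig1 differed by 0.04 (-0.01 under median centring) and Sox10 by -0.14, both inside their array error in the deposited scaling. Over the other scalings Sox10 ran from -0.20 to -0.13, with an array error of 0.17. Of its 3 measured probe sets 1 read higher and 2 lower. St18, a zinc finger gene, read 141 and 88.0 by 1 probe set, 1.60-fold higher (0.68, array error 0.35). Of the signalling genes of the lineage, 7 of 16 were higher and 9 lower (median -0.04), and 5 and 11 under median centring (median -0.10). Adgrg1, an adhesion G protein-coupled receptor of precursors, was 1.47-fold lower (-0.56, both probe sets lower), Hhatl 1.72-fold lower by 1 probe set (-0.78), and Gpr37, a receptor of mature oligodendrocytes, 1.22-fold higher (0.29).

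Markers of oligodendrocyte precursors, the dividing cells from which myelin-forming cells arise, had a median of -0.04 over 12 measured genes, 5 higher and 7 lower. Pdgfra was 1.31-fold higher (0.39) and Cspg4 1.37-fold lower (-0.46) by their brightest probe sets, and each had a second probe set of the opposite sign. Of 11 listed markers of Schwann cells, which myelinate peripheral nerve, 8 had a probe set of their own and 6 were measured. Those 6 had a median of 0.06 and a summed signal of 1442 in the knockout and 1403 in the wild type. The brightest of the 6, Pmp22, read 423.7 in the knockout and 411.0 in the wild type. Pmp2 and Egr2 had probe sets but were not measured, and both were named after their values were seen. Pmp2, which is typical of Schwann cells, read 8.2 in the knockout and 15.1 in the wild type, under the floor on both arrays. The dimmer Egr2 probe set read 2.7 in the knockout and 1.9 in the wild type, also under both floors. The brighter Egr2 probe set read 43.7 and 27.3, above the floor on both arrays.

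**Figure D5:**
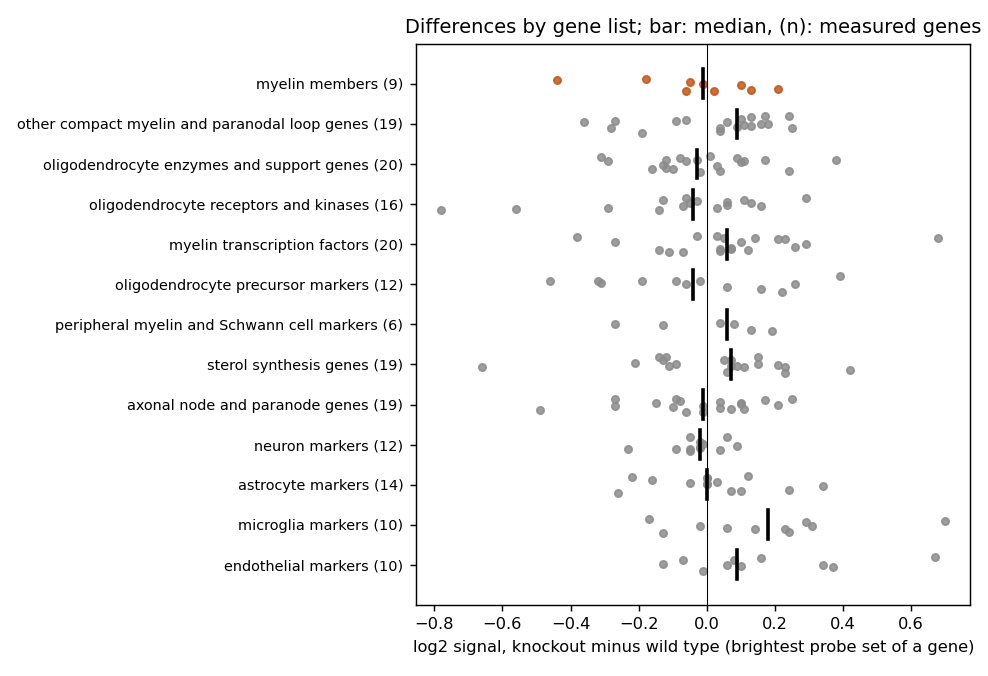
Log2 difference, knockout minus wild type, of each measured gene by its brightest probe set, for the myelin members and 12 other gene lists; black bars are medians, and the number of measured genes is in brackets. The myelin median of -0.01 lies among those of the other oligodendrocyte lists, which run from -0.04 to 0.09.

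The medians of other cell types were -0.02 for neuron markers, 0.00 for astrocyte markers, 0.18 for microglia markers (0.12 under median centring) and 0.09 for endothelial markers (0.03 under median centring). The summed signal of the brightest probe sets of the 9 myelin genes was 20123 in the knockout and 20374 in the wild type, so that the knockout stood at 98.8%, next to 99.0% for 12 neuron markers and 98.9% for 14 astrocyte markers. It was 112% for 10 measured microglia markers and 111% for 10 measured endothelial markers, and their part in the myelin values was not tested.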

How the data were processed

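The deposited table holds linear probe-set signal intensities, 1 per probe set and array. How the authors summarised the probes and scaled the arrays is not stated in the labels. The 2% trimmed mean was 200.0 on both arrays, so 1 factor per array appears to have been used, while medians were 54.4 (knockout) and 52.2 (wild type). Per the labels' protocols, 30 ug of total RNA per array was turned into biotinylated cRNA. A dim linear signal gives noisy ratios, which the floor and the limit for measured probe sets address.

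Gene names come from the platform annotation in GEO, updated by Entrez ID through RefSeq (GRCm38.p6), with 64 control probe sets left out. Signals under an array's 30th percentile (20.5 and 20.2) were set to it before taking log2. Probe sets at or above the median of all mean log2 signals were measured (22519), and a gene took its brightest measured probe set. The number of arrays limits the precision. No test was possible with 1 array per group, and the arithmetic was tested on simulated data.

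The members, gene lists and rules were chosen with earlier results of these data known. The list of neuropeptide genes was added after seeing the files. All 9 members are named with every probe set. Of each other list the genes named come from the 6 brightest and the 3 furthest apart. Exceptions are the genes of the tissue check, and Fa2h, Gal3st1, Pmp2 and Egr2, which were named after their values were seen. Pmp2 and Egr2 were not measured. Alternatives were a pseudocount of 16 in place of the floor, floors at percentile 10 or 50, 3 scalings (median, quantile, loess with span 0.3), no limit or one at percentile 70 for measured probe sets, averaging a gene's probe sets, and leaving out probe sets ending in _s_at or _x_at. Python 3.11.15, pandas 2.3.3 and statsmodels 0.14.6 were used.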

Additional observations from a re-analysis of the deposited data

How the results depend on the processing

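The median difference of the myelin genes lay between -0.07 and 0.01 under the 10 alternatives, and the number of the genes higher in the knockout pool between 3 and 5. For other mature oligodendrocyte genes the median lay between -0.02 and 0.05. The 3 myelin probe sets at least 1.2-fold apart became 1 with the filter at the 70th percentile, which leaves out Gjb1 and the dimmer Ugt8a probe set, and 1 without the _s_at and _x_at probe sets, which leaves out those of Mbp and Gjb1. Under the other alternatives that count ran up to 4. Every gene moved by less than its array error under each alternative that measured it, though Mbp changed sign under median centring and Mal under quantile normalization and loess. With 1 pool per genotype no replicate could be left out, no paired analysis was possible because each group has 1 sample, and signal over background limits Gjb1 and the dim probe set of Mobp.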

Other observations

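Cholesterol is the main lipid of myelin, and its synthesis genes were measured in the same pools. Of 19 measured sterol synthesis genes 12 read higher and 7 lower in the knockout pool, against 50.9% and 49.0% of all measured genes. Their median was 0.07 (0.01 under median centring). Idi1, the isomerase of the isoprenoid steps, read 583 in the knockout and 435 in the wild type, 1.34-fold higher, with both probe sets higher. Sqle and Fdft1, which commit carbon to sterols, differed by 0.11 and 0.09. Msmo1, a sterol methyl oxidase, stood on the other side at 1223 and 1935, which is 1.58-fold lower (-0.66, array error 0.12) by its 1 probe set.

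On the axonal side of the sheath, 9 of 19 measured node and paranode genes read higher and 10 lower, with a median of -0.01. Cntn1, an adhesion molecule that meets the paranodal loops, read 3074 in the knockout and 2731 in the wild type (0.17, all 3 probe sets higher), and Scn2a, a sodium channel of initial segments and unmyelinated axons, 2036 and 1757 (0.21, 3 of 4 probe sets higher). Kcnab2, a subunit of potassium channels beside the paranode, was 1.2-fold lower (-0.27, both probe sets lower). Nefh, the heavy neurofilament of large axons, was 1.41-fold lower (-0.49) by 1 probe set, while Nefl, the light one, differed by -0.08 (-0.14 under median centring), with an array error of 0.12.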
